A study of Mus musculus with 6 samples.

Results

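The TNF superfamily ligands and receptors were described in bulk RNA sequencing of activated mouse Th17 cells, the T helper subset that makes interleukin 17. Members were chosen by symbol from the deposited gene table: every gene named Tnfsf or Tnfrsf with a number, together with Tnf, Lta, Ltb, Ltbr, Cd40, Cd40lg, Cd27, Cd70, Fasl and Ngfr. The rule took 39 of 24182 genes, of which 15 encode ligands, 23 encode receptors and 1, Tnfsf13os, is an antisense RNA. Levels are in FPKM, in which the fragments of a gene are divided by its length and by the size of the library. A mean of 1 FPKM or more over the 6 libraries was reached by 24 members (10 ligands and 14 receptors), and these are called expressed; the other 15 are called silent. The same 24, and no others, passed the filter of the test (1 FPKM or more in at least 3 of 6 libraries).

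The study compared cells in which Sirt2, a NAD-dependent deacetylase gene, had been knocked out with CRISPR/Cas9 (Sirt2 KO, 3 libraries) with control cells (Sirt2 WT, 3 libraries). Both groups had received 72 hours of stimulation through the T cell receptor and its costimulator, by anti-CD3 at 0.5 μg/mL and anti-CD28 at 1 μg/mL; the labels also give the treatment of both as untreated, and name T cells as the source. The labels used here give no strain, age or guide, and do not say whether the KO cells were a pool or a clone. Nor do they say that replicates came from separate cultures or mice. The spread against which p-values are taken is that of these libraries alone and may be technical. The series title names interleukin 17A, interleukin 2 and autoimmune disease as its subject.

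Ligands of this family are mostly trimeric membrane proteins, some of them also shed, and their receptors carry cysteine-rich repeats outside the cell. Inside the cell the receptors either bind TRAF adaptors, which lead to NF-kB and to the JNK and p38 kinases, or carry a death domain that can recruit caspase-8. On T helper cells OX40, GITR, 4-1BB, CD27 and CD30 are known as costimulatory receptors that appear or increase after activation, while CD40 ligand, RANKL, lymphotoxin and TNF are signals that T cells give to other cells.

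The Sirt2 label was checked first. Sirt2 stood at 11.2, 13.5 and 10.9 FPKM in KO replicates 1, 2 and 3 and at 20.7, 19.9 and 21.9 in WT replicates 1, 2 and 3. It fell by 0.76 on the log2(FPKM + 1) scale (SE 0.092, adjusted p 0.0429 by limma), with an exact two-sided permutation p of 0.1, the smallest that 3 against 3 libraries allow. It fell by 0.71 without KO replicate 3 (limma adjusted p 0.00905), whereas leaving out KO replicate 1 or any WT library gave a limma adjusted p of 0.218 to 0.376. KO replicate 3 stood apart from its group: over the tested genes its correlation with KO replicates 1 and 2 was 0.981 and 0.979, against 0.990 with each WT library, 0.992 between KO replicates 1 and 2, and 0.993 to 0.994 among WT libraries. Results on members are therefore given with and without this library. The choice of KO replicate 3 was made from the same values that are tested. Calls and p-values without it are not independent of that choice and are given as description. Between 10642 and 10958 genes per library were at 1 FPKM or more. The files hold no counts; low values fell in steps whose size gives an approximate number of fragments behind each gene, printed below for low members. In bulk RNA, fewer cells of a type and less RNA per cell cannot be told apart. Markers of the labelled cell type were present, with 12 of 12 T cell and Th17 markers tested, 0 of them called with all libraries by limma (1 at an unadjusted p under 0.05), 3 called lower in KO without KO replicate 3, and summed levels of 625 to 813 FPKM in KO and 781 to 821 in WT.

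The 250 bases before a RefSeq start (GRCm38.p6) are shown for 4 members, 5′ to 3′ on the strand of the gene, because Tnfrsf8, Tnfrsf9 and Ltb were the expressed members with an NF-kB consensus match and Tnfsf11 is a strongly varying member without one. The windows are chr4:145315165-145315414 (minus strand) for Tnfrsf8, chr4:150927749-150927998 (plus) for Tnfrsf9, chr17:35194257-35194506 (plus) for Ltb and chr14:78308044-78308293 (minus) for Tnfsf11. Capitals mark matches, on either strand, to the NF-kB consensus or to the AP-1 motif TGANTCA.
Tnfrsf8: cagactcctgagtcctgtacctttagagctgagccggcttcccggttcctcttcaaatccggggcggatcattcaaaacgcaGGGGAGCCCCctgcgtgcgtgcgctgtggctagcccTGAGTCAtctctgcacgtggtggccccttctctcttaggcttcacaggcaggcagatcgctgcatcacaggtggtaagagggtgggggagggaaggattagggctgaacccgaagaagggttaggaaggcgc
Tnfrsf9: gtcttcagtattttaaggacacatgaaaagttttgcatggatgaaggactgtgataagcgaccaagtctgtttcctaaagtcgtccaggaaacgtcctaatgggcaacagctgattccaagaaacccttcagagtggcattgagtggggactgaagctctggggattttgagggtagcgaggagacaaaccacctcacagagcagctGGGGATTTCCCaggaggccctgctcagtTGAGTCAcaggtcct
Ltb: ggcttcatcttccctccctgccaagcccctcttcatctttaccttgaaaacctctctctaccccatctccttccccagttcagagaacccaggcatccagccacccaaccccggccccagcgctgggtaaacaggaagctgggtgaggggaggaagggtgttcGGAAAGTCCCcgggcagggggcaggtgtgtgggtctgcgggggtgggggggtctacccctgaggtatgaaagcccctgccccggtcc
Tnfsf11: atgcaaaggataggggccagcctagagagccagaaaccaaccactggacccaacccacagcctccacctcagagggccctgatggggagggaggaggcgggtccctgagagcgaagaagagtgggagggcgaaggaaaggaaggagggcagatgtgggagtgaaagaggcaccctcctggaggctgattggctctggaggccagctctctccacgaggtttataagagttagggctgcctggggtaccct

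In Tnfrsf8 the NF-kB match began at position -168 from the start and the AP-1 match at -132. Tnfrsf9 has 2 RefSeq starts in the table, and the window shown lies before the start of its main transcript in these libraries. Its 2 NF-kB matches overlap each other in 1 capital run, and the AP-1 match follows at -15. In Ltb the single NF-kB match began at -87 and overlaps an NFAT core (GGAAA); an NFAT core also lies in the NF-kB run of Tnfrsf9. Over windows of 300 bases (250 before and 50 after the start), the promoter table held 19 promoters for 17 of the 24 expressed members. The NF-kB consensus occurred in 15.8% of these 19 promoters and in 4.51% of all 32851 mouse promoters, the AP-1 motif in 15.8% and 7.81%, and the NFAT core in 84.2% and 61.3%. The AP-1 match outside Tnfrsf8 and Tnfrsf9 was in Tnfsf14. These matches describe letters and were not tested for use by a factor.

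The family spanned a wide range of levels. Members summed to 873 to 1007 FPKM per library, or 0.280 to 0.329% of the library's total FPKM. Tnfrsf4, Lta and Tnfrsf18 made up 69.5% of that sum, and ranked 139, 196 and 508 among all genes by mean level. By the mean over all 6 libraries, the order of ligands was Lta, Ltb, Tnf, Tnfsf11, Cd40lg, Tnfsf8, Tnfsf14, Tnfsf9, Tnfsf4 and Cd70. For receptors it was Tnfrsf4, Tnfrsf18, Tnfrsf13b, Tnfrsf9, Tnfrsf25, Tnfrsf1b, Tnfrsf1a, Cd27, Tnfrsf26, Tnfrsf8, Tnfrsf22, Tnfrsf14, Tnfrsf10b and Tnfrsf12a. The order of the group means differed between genotypes at some places. Tnfsf11 had a higher mean than Tnf in KO (35.6 and 28.8 FPKM) and a lower one in WT (22.7 and 29.7). That came from KO replicate 1 alone (51.5 and 20.5), since Tnf was the higher gene in KO replicates 2 and 3. Tnfrsf25 was above Tnfrsf9 in WT (21.4 and 19.8) and below it in KO. Among KO libraries it was below Tnfrsf9 only in replicate 3 (18.2 and 42.0). By the KO means, but not the WT means, Cd27 was above Tnfrsf1a and Tnfrsf8 was above Tnfrsf26 and Tnfrsf22. In KO replicate 3 alone Tnfrsf8 was below Tnfrsf26 (7.34 and 7.60). These changes of order were not tested.

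**Figure D1:**
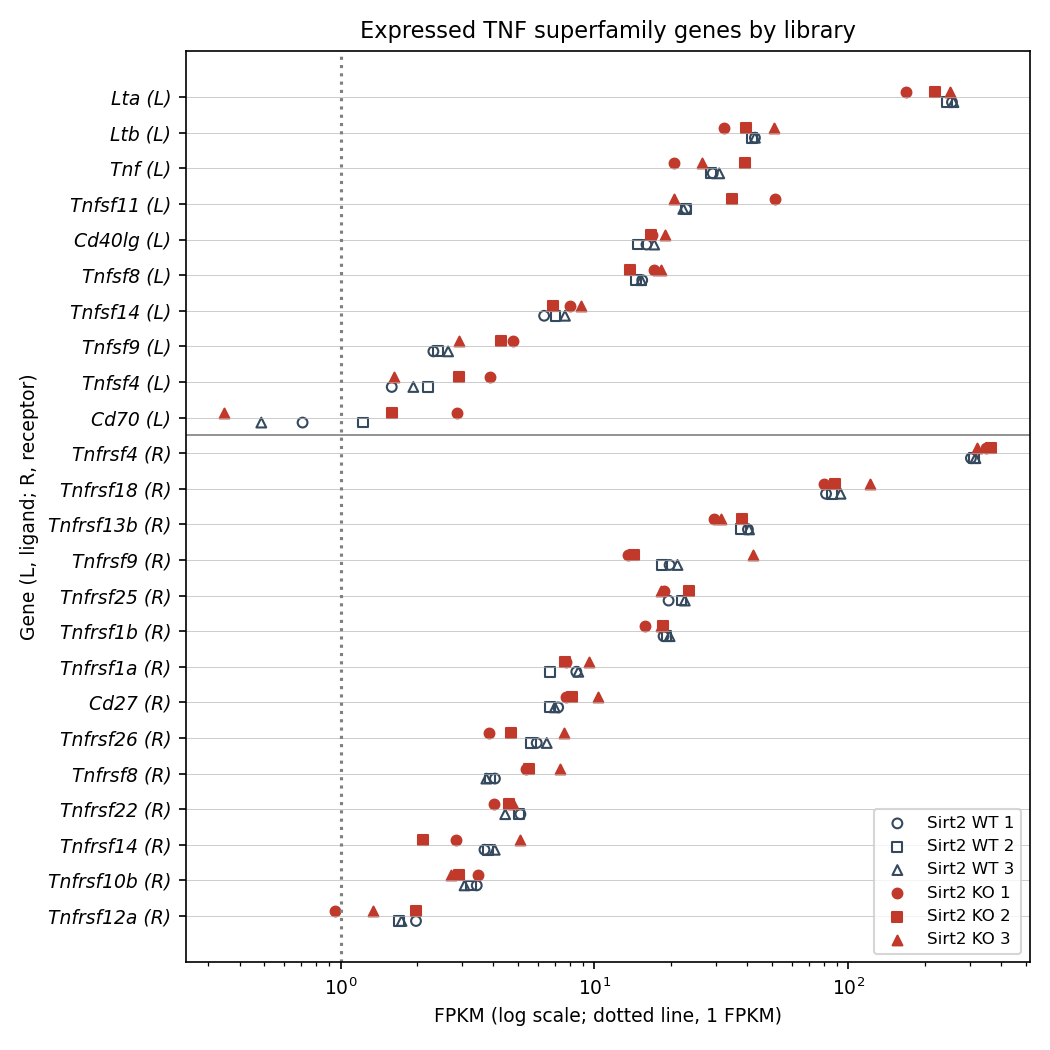
FPKM (log axis) of the 24 expressed members in each of the 6 libraries, ligands above the line and receptors below, with Sirt2 KO filled and Sirt2 WT open. Tnfrsf4 and Lta stand at 168 FPKM or more in every library, Cd70 crosses the dotted line at 1 FPKM, and in Tnfsf11 and Tnfrsf9 the KO libraries scatter far beyond the WT libraries.

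No member passed the test of KO against WT with all 6 libraries. By limma on log2(FPKM + 1) with Benjamini-Hochberg adjustment over 10873 genes, 0 of 24 expressed members had an adjusted p under 0.05, against 12 genes, or 0.110%, of all tested. At an unadjusted p under 0.05 there were 4 members (Tnfrsf8, Tnfsf9, Cd27 and Tnfrsf13b) and 610 genes. All 3 KO values lay above all 3 WT values in 4 members (Tnfrsf4, Cd27, Tnfrsf8 and Tnfsf9), against 4.28% of tested genes, and below them in 1 member (Tnfrsf1b), against 6.88%. The median log2 fold change was 0.05 over the members and -0.03 over all tested genes, and -0.03 and -0.04 without KO replicate 3. In the authors' deposited table, 1 member (Tnfrsf8) had a q-value under 0.05, against 102 genes, or 0.422%, of the 24182 listed there. Without KO replicate 3, limma called 7 members: Tnfsf11, Tnfsf9, Tnfsf4 and Tnfrsf8 were higher in KO, against 4.00% of tested genes, and Tnfrsf9, Tnfrsf14 and Tnfrsf26 were lower, against 6.14%. At transcript level 0 member transcripts were called without this library. The only transcripts of Tnfsf11, Tnfsf9 and Tnfsf4 have the same FPKM as their genes. Their limma adjusted p in that fit was 0.199, 0.206 and 0.280, so these calls depend on the level fitted.

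**Figure D2:**
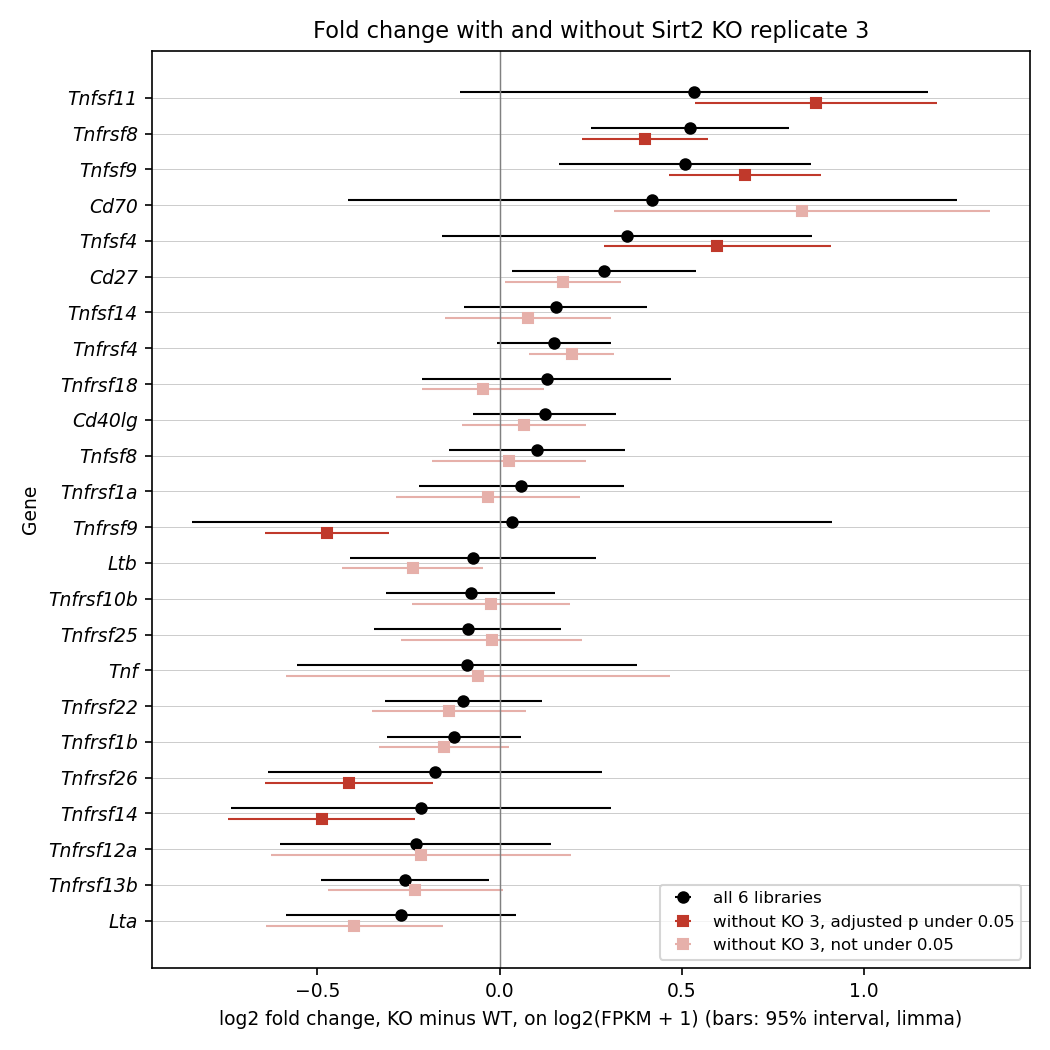
Log2 fold change (KO minus WT, on log2(FPKM + 1)) of the 24 expressed members with its 95% interval from limma, with all 6 libraries (black) and without KO replicate 3 (red; full colour where the adjusted p is under 0.05). The intervals of Tnfrsf8, Tnfsf9 and Cd27 lie above 0 in both fits, while the point of Tnfrsf9 moves from 0.03 to -0.47.

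Lta, the ligand gene with the highest mean level, encodes lymphotoxin alpha, which is secreted as a trimer that binds the TNF receptors or is held at the membrane by lymphotoxin beta. Lta stood at 168, 219 and 251 FPKM in KO replicates 1, 2 and 3 and at 256, 245 and 259 in WT replicates 1, 2 and 3. KO replicates 1 and 2 were below every WT library and KO replicate 3 lay inside the WT range. Its log2 fold change was -0.27 (SE 0.135, adjusted p 0.843 by limma), -0.40 without KO replicate 3 (adjusted p 0.0531) and -0.11 without KO replicate 1. Ltb, lymphotoxin beta, stood at 32.4, 39.6 and 50.9 FPKM in KO and at 42.8, 41.6 and 42.8 in WT, with KO replicate 3 the highest of the 6 and the other KO libraries the lowest. Tnf, the founding cytokine of the family, stood at 20.5, 39.3 and 26.6 FPKM in KO and at 29.2, 28.8 and 31.0 in WT. The KO values of Tnf surrounded the WT values, with replicate 1 lowest and replicate 2 highest. The log2 fold changes of Ltb and Tnf were -0.07 and -0.09 (limma adjusted p 0.926 and 0.933), and -0.24 and -0.06 without KO replicate 3 (adjusted p 0.10 and 0.883).

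These 3 genes lie together in the major histocompatibility complex region, on chromosome 17 from 35194439 to 35205351, with 3.06 kb between Ltb and Tnf and 1.16 kb between Tnf and Lta. KO replicate 1 had the lowest value of the 6 libraries in each of the 3 genes.

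Tnfsf11 encodes RANKL, the ligand best known for driving osteoclast formation, which activated T cells also make. Its level was 51.5, 34.8 and 20.6 FPKM in KO replicates 1, 2 and 3 against 22.9, 22.9 and 22.4 in WT. KO replicates 1 and 2 stood above every WT library and KO replicate 3 below every one. The mean was 35.6 ± 15.4 (SD, n = 3) in KO and 22.7 ± 0.311 (SD, n = 3) in WT, and the log2 fold change of 0.53 (SE 0.275) did not pass the test (limma adjusted p 0.843). Without KO replicate 3 it rose by 0.87 (limma adjusted p 0.0191), and without KO replicate 1 the log2 fold change was 0.23. Its receptor Tnfrsf11a (RANK) and its soluble decoy Tnfrsf11b (osteoprotegerin) were silent, at 0.0721 FPKM or less and 0.0757 FPKM or less.

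Cd40lg, the ligand through which T helper cells engage CD40 on B cells and dendritic cells, stood at 16.9, 16.7 and 19.0 FPKM in KO and at 16.0, 14.8 and 17.2 in WT. Tnfsf8, the CD30 ligand, stood at 17.1, 13.8 and 18.2 FPKM in KO and at 15.4, 14.5 and 15.3 in WT. Tnfsf14 (LIGHT), which binds HVEM and the lymphotoxin beta receptor, stood at 8.02, 6.87 and 8.85 FPKM in KO and at 6.33, 7.02 and 7.65 in WT. In all of these the groups overlapped and KO replicate 3 was the highest of the 6 libraries. Their log2 fold changes were 0.12, 0.10 and 0.15 (limma adjusted p 0.866, 0.877 and 0.866), and 0.07, 0.03 and 0.08 without KO replicate 3 (adjusted p 0.558, 0.867 and 0.617).

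Tnfsf9, Tnfsf4 and Cd70 encode the ligands of 4-1BB, OX40 and CD27, which are better known from antigen-presenting cells but are also made by activated T cells. Tnfsf9 (chromosome 17, 57105325 to 57107757, plus strand) stood at 4.78, 4.27 and 2.91 FPKM in KO and at 2.32, 2.41 and 2.65 in WT, so every KO library was above every WT library. The means were 3.99 ± 0.962 and 2.46 ± 0.171 (SD, n = 3 each), and the log2 fold change was 0.51 (SE 0.149, unadjusted p 0.00995, limma adjusted p 0.806). Without KO replicate 3 Tnfsf9 rose by 0.67 (limma adjusted p 0.0118). In the authors' deposited table its ratio of KO over WT was 1.62 with a p-value of 0.00491 and a q-value of 0.394. Tnfsf4 stood at 3.88, 2.94 and 1.62 FPKM in KO and at 1.59, 2.20 and 1.94 in WT, with KO replicates 1 and 2 above every WT library and KO replicate 3 within the WT range. The log2 fold change of 0.35 did not pass (limma adjusted p 0.852), and Tnfsf4 rose by 0.60 without KO replicate 3 (adjusted p 0.0367). Without KO replicate 1 the log2 fold change was 0.15.

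Cd70 stood at 2.87, 1.59 and 0.348 FPKM in KO and at 0.708, 1.22 and 0.487 in WT. These values rest on about 7 to 57 fragments per library, and the KO libraries lay on both sides of WT. Cd70 had a log2 fold change of 0.42 (limma adjusted p 0.871), and 0.83 without KO replicate 3 (adjusted p 0.0555). Tnfsf9, Cd70 and Tnfsf14 are neighbours on chromosome 17, 38.2 and 39.7 kb apart. KO replicate 1 was the highest KO library in Tnfsf9 and Cd70 but not in Tnfsf14.

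Markers of cells that also make these ligands were read in the same libraries. Of 15 myeloid and dendritic markers in the table, 9 had every KO library above every WT library and 1 had every KO library below. Among the 4 that were tested, 3 lay above (Lyz2, Cd68 and Ccl22), where 4.28% of all tested genes did. These shares cannot be compared, because Ccl22 was listed with its rise known and tested through its high KO level. The summed level of the 15 was 47.2 to 47.8 FPKM in KO and 31.4 to 32.7 in WT. Ctss alone gave 26.3 to 31.4 FPKM of that sum. Ccl22, which was placed in this list with its rise already known, was called, at 4.89 to 6.53 FPKM in KO and 0.709 to 0.798 in WT. It passed the filter of the test through its KO libraries alone, so its entry to the test depended on a high KO level. Lyz2 stood at 4.24 to 9.44 in KO and 0.782 to 1.38 in WT. The defining genes Itgam (0.0882 to 0.134 FPKM in KO, 0.0236 to 0.0345 in WT), Itgax (0.0923 to 0.184 and 0 to 0.0757), Csf1r (0.227 to 0.405 and 0.0218 to 0.207), Cd14 (0.881 to 1.49 and 0.0246 to 0.121) and Cybb (0.304 to 0.422 and 0.0151 to 0.0373) were low but had every KO library above every WT library. Ctss, Fcgr3, Flt3, Tyrobp and Adgre1 overlapped, the last at 0.0478 or less. Xcr1 lay the other way, at 0.0476 to 0.0644 FPKM in KO and 0.0745 to 0.115 in WT. Of 9 cytotoxic, NK and CD8 markers in the table, 5 had KO above WT, and 3 of the 5 tested did (Gzmb, Gzmc and Nkg7). Gzmb and Gzmc were called. Gzmc and Nkg7 passed the filter through their KO libraries alone, so the same limit holds for them. The count of 3 of 5 therefore cannot be compared with the 4.28% of all tested genes. The sum was 25.7 to 29.3 FPKM in KO and 9.46 to 10.04 in WT, with Gzmb the largest part in KO. Prf1, Klrd1, Cd8b1 and Eomes overlapped between groups. Cd8a stood at 0.225 to 0.436 in KO and 0.0856 to 0.120 in WT, and Cd8b1 at 3.18 to 5.92 and 3.75 to 4.89. Of 12 B cell and MHC class II markers, 6 had KO above WT (2 of the 4 tested, against 4.28% of all tested genes). The sum was 55.7 to 62.7 FPKM in KO and 48.8 to 49.7 in WT. Ighm (21.3 to 25.3 FPKM in KO, 18.3 to 18.6 in WT) and Cd74 (22.7 to 30.9 and 23.6 to 26.0) gave most of that sum, and Cd79b stood at 0.559 to 1.48 and 0.623 to 0.922. H2-Ab1 overlapped, at 2.14 to 9.90 FPKM in KO and 3.89 to 4.40 in WT. Without KO replicate 3, limma called 2 markers of this list higher and 1, H2-Ab1, lower (adjusted p 0.0232). Pax5 stood at 0.0323 to 0.159 in KO and 0 to 0.0148 in WT, and Ms4a1 at 0 to 0.0376 in KO and at 0 in every WT library. Erythroid, stromal and endothelial markers were all under 1 FPKM. The part of these genes in the values of Tnfsf9, Tnfsf4, Cd70 and the receptors was not tested.

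Among receptors, the T cell costimulators Tnfrsf4 and Tnfrsf18 led. Tnfrsf4, OX40, stood at 348.5, 366 and 322 FPKM in KO and at 304, 313 and 316.5 in WT, with every KO library above every WT library. The gap between the lowest KO and the highest WT library was small beside the level. Its log2 fold change was 0.15 (SE 0.0671, unadjusted p 0.0594, limma adjusted p 0.843), and 0.20 without KO replicate 3 (adjusted p 0.0501). Tnfrsf18, GITR, lies 9.55 kb from Tnfrsf4 on chromosome 4. It stood at 80.2, 88.2 and 121.5 FPKM in KO and at 81.7, 86.2 and 93.2 in WT. Only KO replicate 3 lay above the WT range, and the log2 fold change of 0.13 (limma adjusted p 0.892) turned to -0.05 without it (adjusted p 0.693).

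Tnfrsf8 (ENSMUSG00000028602, chromosome 4, 145267137 to 145315164, minus strand) encodes CD30, a receptor of activated lymphocytes that signals through TRAF proteins. It stood at 5.37, 5.53 and 7.34 FPKM in KO and at 4.06, 3.87 and 3.75 in WT. Every KO library was above every WT library, and the means were 6.08 ± 1.09 and 3.89 ± 0.153 (SD, n = 3 each). The log2 fold change was 0.52 (SE 0.117) with the smallest unadjusted p of the family, 0.00235, and a limma adjusted p of 0.502. Without KO replicate 3 it rose by 0.40 (limma adjusted p 0.0244). In the authors' deposited table its ratio was 1.56 with a q-value of 0.00221. Its neighbour Tnfrsf1b, 20.3 kb away, lay on the other side of WT.

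Cd27, the receptor for CD70, stood at 7.76, 8.18 and 10.3 FPKM in KO and at 7.19, 6.70 and 6.98 in WT. The groups did not overlap, and KO replicate 3 was the highest library. Its log2 fold change was 0.29 (SE 0.108, unadjusted p 0.0309, limma adjusted p 0.843), and 0.17 without KO replicate 3 (adjusted p 0.131). In the authors' deposited table its p-value was 0.00942 and its q-value 0.557.

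Tnfrsf9, 4-1BB, had the widest scatter of any receptor on the log2 scale. It stood at 13.6, 14.4 and 42.0 FPKM in KO and at 19.8, 18.4 and 21.2 in WT. KO replicates 1 and 2 were below every WT library and KO replicate 3 stood above every one. The log2 fold change was 0.03 (SE 0.377, adjusted p 0.990 by limma), and without KO replicate 3 Tnfrsf9 fell by 0.47 (adjusted p 0.0165). The mean was 23.3 ± 16.2 FPKM in KO and 19.8 ± 1.40 in WT (SD, n = 3 each), and no KO library stood near the KO mean.

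Tnfrsf14 (HVEM), which binds LIGHT, stood at 2.85, 2.11 and 5.10 FPKM in KO and at 3.69, 3.82 and 4.05 in WT. Tnfrsf26, a receptor of a small cluster on chromosome 7 related to the decoy TRAIL receptors, stood at 3.84, 4.71 and 7.60 FPKM in KO and at 5.92, 5.62 and 6.49 in WT. Both repeat the order seen in Tnfrsf9, with KO replicates 1 and 2 below the WT range and KO replicate 3 above it. Their log2 fold changes were -0.22 and -0.18 (limma adjusted p 0.881 and 0.888), and without KO replicate 3 they fell by 0.49 and 0.41 (adjusted p 0.0370 and 0.0431). The value of Tnfrsf14 was -0.0021 without KO replicate 2, and that of Tnfrsf26 was 0.00080 without KO replicate 1. Tnfrsf22, the next gene of that cluster at 6.08 kb, stood at 4.03, 4.62 and 4.77 FPKM in KO and at 5.11, 5.03 and 4.45 in WT, with overlapping groups. Tnfrsf22 had a log2 fold change of -0.10 (limma adjusted p 0.874), and -0.14 without KO replicate 3 (adjusted p 0.325). Tnfrsf22, Tnfrsf23 and Tnfrsf26 are close relatives, and how the authors' counting shared reads between them is uncertain.

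**Figure D3:**
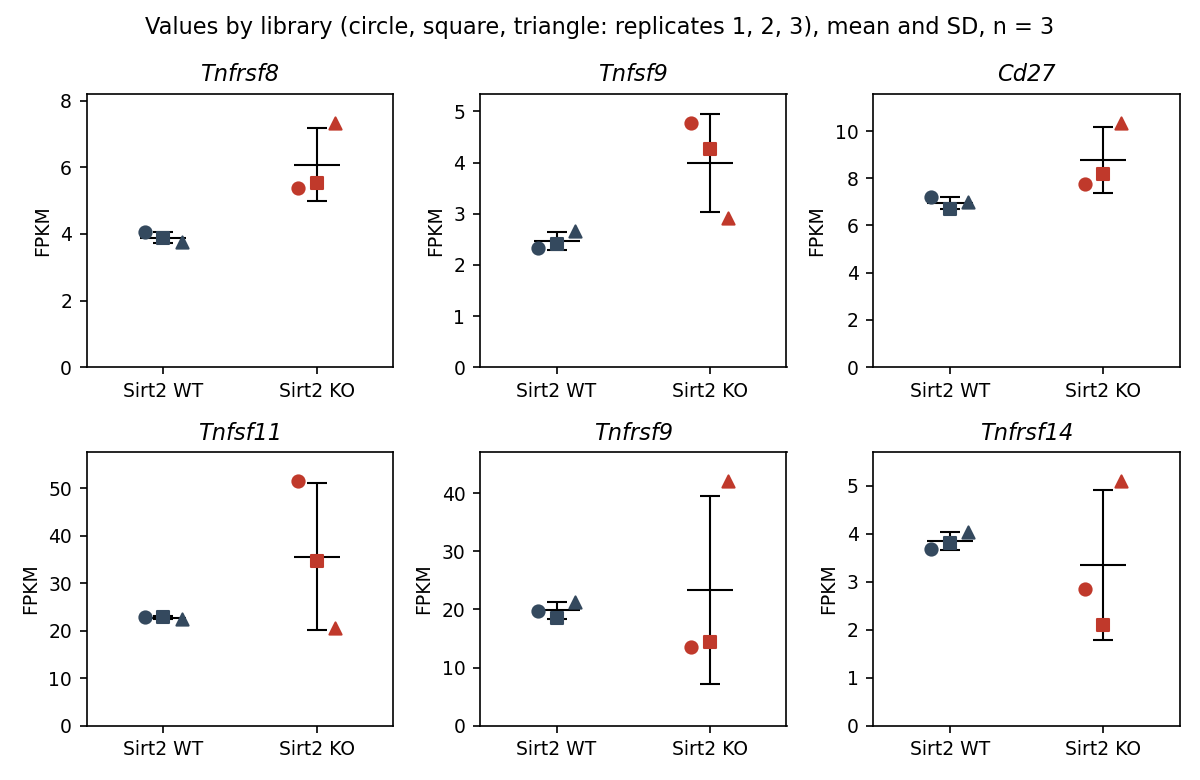
FPKM by library for 6 members (linear axes from 0; circle, square and triangle are replicates 1, 2 and 3; bars give the mean and SD, n = 3). In the upper row (Tnfrsf8, Tnfsf9 and Cd27) every KO library is above every WT library, and in the lower row (Tnfsf11, Tnfrsf9 and Tnfrsf14) KO replicate 3 lies on the opposite side of WT from KO replicates 1 and 2.

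Fold changes of the receptors for TNF itself were small. Tnfrsf1b, the receptor expressed mostly by lymphocytes and other haematopoietic cells, stood at 15.9, 18.6 and 18.3 FPKM in KO and at 18.7, 19.2 and 19.8 in WT, with every KO library below every WT library. Its log2 fold change was -0.13 (SE 0.0788, adjusted p 0.854 by limma), and -0.15 without KO replicate 3 (adjusted p 0.208). Tnfrsf1a, the broadly expressed receptor with a death domain, stood at 7.70, 7.68 and 9.49 FPKM in KO and at 8.48, 6.67 and 8.64 in WT. The groups overlapped, and its log2 fold change of 0.06 (limma adjusted p 0.928) became -0.03 without KO replicate 3 (adjusted p 0.866).

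Tnfrsf13b, TACI, is best known as a B cell receptor for the cytokines BAFF and APRIL. It stood at 29.5, 38.1 and 31.5 FPKM in KO and at 40.2, 37.8 and 40.6 in WT. The part of the B cell genes given above in this value was not tested. KO replicates 1 and 3 were below every WT library and KO replicate 2 lay inside the WT range. The log2 fold change was -0.26 (SE 0.0987, unadjusted p 0.0313, limma adjusted p 0.843), and -0.23 without KO replicate 3 (adjusted p 0.166). Tnfrsf25 (DR3), the death-domain receptor for TL1A, stood at 18.7, 23.6 and 18.2 FPKM in KO and at 19.6, 22.01 and 22.7 in WT. Its groups overlapped, with a log2 fold change of -0.09 (limma adjusted p 0.894) and -0.02 without KO replicate 3 (adjusted p 0.906).

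Tnfrsf10b, the mouse TRAIL death receptor, stood at 3.47, 2.93 and 2.73 FPKM in KO and at 3.44, 3.27 and 3.08 in WT. Tnfrsf12a (Fn14), the receptor for TWEAK, stood at 0.953, 1.99 and 1.34 FPKM in KO and at 1.98, 1.70 and 1.74 in WT, from about 44 to 89 fragments. Both overlapped between groups. Their log2 fold changes were -0.08 and -0.23 (limma adjusted p 0.894 and 0.866), and -0.02 and -0.22 without KO replicate 3 (adjusted p 0.885 and 0.436).

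Read as ligand and receptor pairs, both sides were expressed for OX40 (Tnfsf4 and Tnfrsf4), CD30 (Tnfsf8 and Tnfrsf8), 4-1BB (Tnfsf9 and Tnfrsf9), HVEM (Tnfsf14 and Tnfrsf14), CD27 (Cd70 and Cd27) and the TNF receptors (Tnf and Lta with Tnfrsf1a and Tnfrsf1b). For OX40 the receptor was far above the ligand, with means of 346 FPKM for Tnfrsf4 and 2.81 for Tnfsf4 in KO and 311 and 1.91 in WT. For CD27 the receptor was also above the ligand, by less, with means of 8.76 FPKM for Cd27 and 1.60 for Cd70 in KO and 6.96 and 0.806 in WT. For CD30 the ligand was above the receptor, with means of 16.4 FPKM for Tnfsf8 and 6.08 for Tnfrsf8 in KO and 15.1 and 3.89 in WT. In the 4-1BB pair, without KO replicate 3, the ligand was called higher and the receptor lower in KO. Those calls rest on KO replicates 1 and 2 alone. With all 6 libraries neither gene was called, and the log2 fold change of Tnfrsf9 was 0.03. Ltb, Tnfsf11 and Cd40lg were expressed while their main receptors Ltbr, Tnfrsf11a and Cd40 were silent. Tnfrsf25, Tnfrsf12a and Tnfrsf10b were expressed while their ligands Tnfsf15, Tnfsf12 and Tnfsf10 were silent. Of these ligands Tnfsf10 was near the threshold, at a mean of 0.735 FPKM. Tnfrsf13b was also expressed while the BAFF gene Tnfsf13b was silent. The members held no gene named Tnfsf13 or Tnfsf18, so APRIL was not read and Tnfrsf18 was not read as a pair.

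KO libraries differed among themselves more than WT libraries did. The SD of log2(FPKM + 1) was larger in KO than in WT in 22 of 24 expressed members, against 78.4% of tested genes, with a median SD of 0.254 in KO and 0.0659 in WT; over all tested genes the medians were 0.145 and 0.0692. The 3 KO libraries lay on both sides of the WT mean in 15 members, all above it in 5 and all below it in 4. KO replicate 3 was outside the range of the other 5 libraries in 15 of 24 members, against 49.7% of tested genes, and so was KO replicate 1 in 15, against 36.9%. KO replicate 2 was outside in 6 members, against 49.0%. In 6 members (Tnfsf11, Cd70, Ltb, Tnfrsf9, Tnfrsf14 and Tnfrsf26) KO replicates 1 and 2 were outside the WT range on one side and KO replicate 3 on the other, a share of 25.0% that is near the 24.1% of all tested genes.

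**Figure D4:**
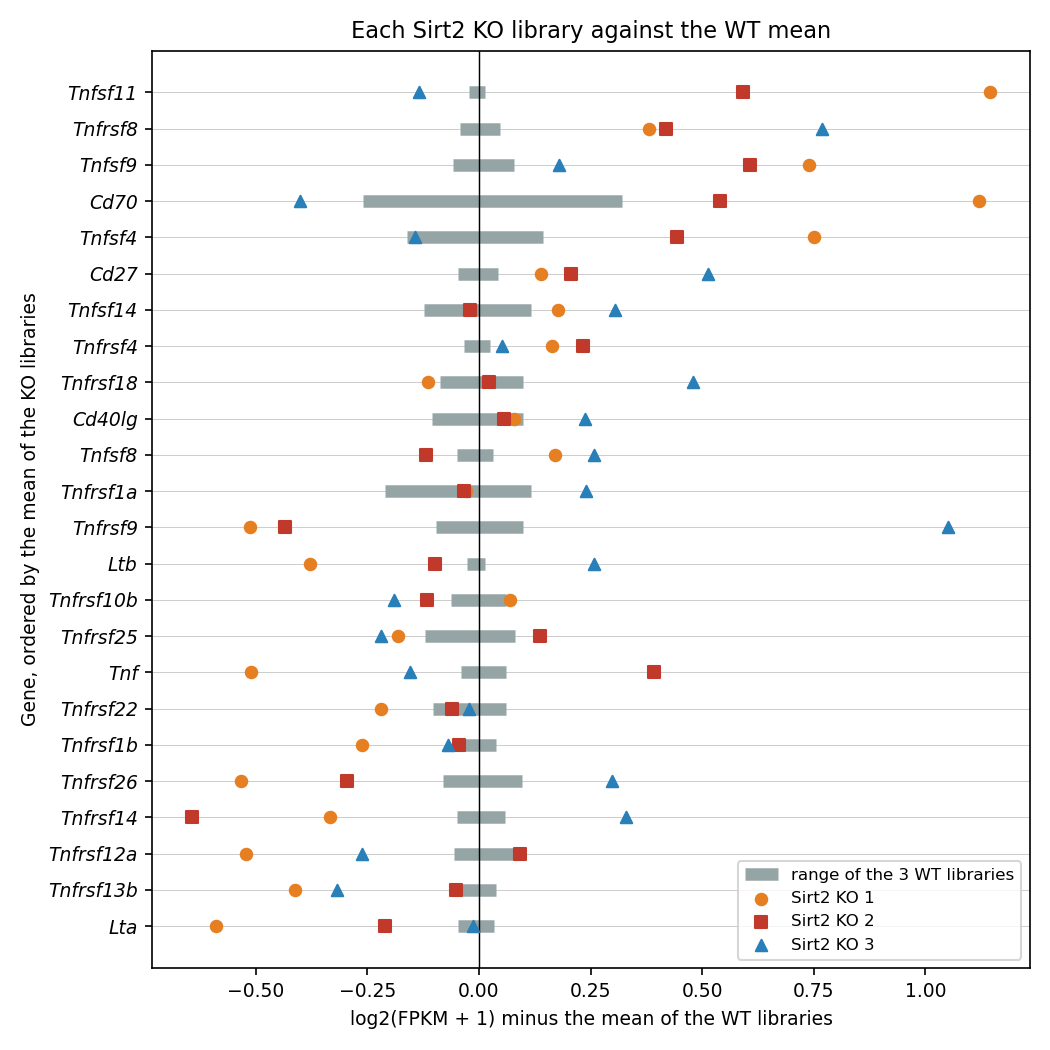
Log2(FPKM + 1) of each KO library minus the WT mean for the 24 expressed members, with the grey bar giving the range of the 3 WT libraries. In 6 members, among them Tnfsf11 and Tnfrsf9, KO replicate 3 (triangle) falls beyond the WT range on the side opposite to KO replicates 1 and 2, while in Tnfrsf8, Tnfsf9, Cd27 and Tnfrsf4 all KO libraries lie to the right of the WT range.

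Of the 15 silent members, 5 were ligands and 9 receptors, with Tnfsf13os the remaining gene. The threshold fell between Cd70 with a mean of 1.20 FPKM and Tnfsf10 with 0.735. Fasl, the ligand of the death receptor Fas, stood at 1.09, 0.690 and 1.02 FPKM in KO and at 0.305, 0.256 and 0.540 in WT, from about 11 to 50 fragments. Every KO library was above every WT library. In the fit without a filter its log2 fold change was 0.50 (unadjusted p 0.00788, limma adjusted p 0.684), and in the authors' deposited table its p-value was 0.00138 and its q-value 0.181. Gzmb and Gzmc of the cytotoxic list, whose sums are given above, were higher in the same libraries, and their part in the value of Fasl was not tested. Tnfsf10 (TRAIL) stood at 0.462 to 0.956 FPKM in KO and at 0.598 to 0.782 in WT. These values rest on about 56 to 121 fragments, more than for the expressed Cd70 in every library.

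Ltbr, the lymphotoxin beta receptor, which is known from stromal and myeloid cells, stood at 0.200, 0.0405 and 0.212 FPKM in KO and at 0.247, 0.234 and 0.588 in WT, from about 2 to 32 fragments. Cd40 stood at 0.180 to 0.212 FPKM in KO and 0.162 to 0.248 in WT. The death-domain receptor Tnfrsf21 (DR6) reached 0.720 FPKM, Tnfrsf23 reached 0.556, the BAFF receptor Tnfrsf13c 0.423 and Tnfrsf19 (TROY) 0.184. The remaining silent members were lower still. Tnfsf15 (TL1A) reached 0.0768 FPKM, Tnfsf12 (TWEAK) 0.0675, Tnfsf13b (BAFF) 0.0486 and Tnfsf13os 0.0367. Tnfsf12 and Tnfsf13os overlap on chromosome 11 on opposite strands, and without strand their reads cannot be told apart. Ngfr, the low-affinity neurotrophin receptor, was listed at 0 in all libraries except KO replicate 3, at 0.0242 FPKM.

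Transcripts showed which products carried these levels. The table held 100 transcripts of the members, of which 38 from the 24 expressed genes were tested. By limma 0 of 38 were called, against 0.0417% of 19184 transcripts, with 3 at an unadjusted p under 0.05. KO lay wholly above WT in 4 transcripts, against 4.71%, and wholly below it in 2, against 6.36%. Tnfrsf4 had 88.4% of its summed transcript FPKM in 1 coding transcript, and Tnfrsf8 had 96.7%. Tnfrsf18 was split between 2 coding transcripts, with 50.2% and 27.3%, and a form with a retained intron, with 21.3%. Tnfrsf25 had 48.1% and 41.3% in 2 coding transcripts and 10.3% in a processed one. Ltb had 83.3% in its coding transcript and 16.4% in a form with a retained intron. Tnfrsf14 had 65.6% and 32.7% in 2 coding transcripts. The main Tnfrsf9 transcript, with 79.2% of the gene over all libraries, starts at the RefSeq start shown above. Its share was 54.9% in KO replicate 1 and 75.7 to 87.0% in the other libraries. This transcript stood at 11.3, 16.3 and 47.5 FPKM in KO and 22.5, 21.5 and 21.6 in WT. It repeated the order of the gene, with KO replicate 3 above the WT libraries and the other KO libraries below them.

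In 7 lists of genes that act with these receptors, 0 of 71 tested genes were called by limma, and 5, or 7.04%, had an unadjusted p under 0.05, against 5.61% of all genes tested. The members of these lists thus stood near the background, and the genes below are given as values. Of 13 TRAF adaptors and regulators tested, only Traf1, an adaptor of TNF receptor complexes, had an unadjusted p under 0.05. It stood at 10.6, 10.2 and 10.5 FPKM in KO and at 7.98, 7.92 and 8.99 in WT, with a log2 fold change of 0.30 (SE 0.0758, adjusted p 0.638 by limma). Every KO library was above every WT library, and the values of KO replicate 3 and the other KO libraries were close together; without KO replicate 3 the log2 fold change was 0.29 (adjusted p 0.0517). Of 19 genes of NF-kB activation, Nfkbia, Rel and Map3k14 had an unadjusted p under 0.05. Nfkbia, the inhibitor IkB-alpha, stood at 84.9, 78.5 and 62.9 FPKM in KO and at 58.9, 64.6 and 56.9 in WT, with KO replicate 3 inside the WT range. Rel, the NF-kB subunit c-Rel, stood at 31.6, 20.6 and 21.2 FPKM in KO and at 18.8, 19.2 and 17.5 in WT. Map3k14, the kinase NIK of the non-canonical pathway, stood at 5.46, 6.91 and 6.74 FPKM in KO and at 7.33, 7.72 and 7.67 in WT. Rel had every KO library above WT and Map3k14 every KO library below it, and the limma adjusted p of Nfkbia, Rel and Map3k14 was 0.843 each. Without KO replicate 3 the log2 fold changes of Rel and Map3k14 were 0.45 and -0.26 (adjusted p 0.102 and 0.112).

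The other lists held few such genes. Otulin, a deubiquitinase of linear ubiquitin chains, was the 1 of 9 ubiquitin feedback genes with an unadjusted p under 0.05, at 35.1, 38.1 and 34.2 FPKM in KO and 30.6, 30.9 and 30.5 in WT (log2 fold change 0.21, limma adjusted p 0.806). None of 13 death receptor genes, 4 shedding genes, 10 JNK and p38 genes and 3 further family genes had an unadjusted p under 0.05. Fas, the receptor for Fas ligand, which the symbol rule does not take, stood at 8.10, 5.99 and 7.44 FPKM in KO and at 6.57, 6.04 and 6.31 in WT. Without KO replicate 3, limma called 6 of the 71 tested pathway genes. In neither direction was their share above that of all tested genes, 4.00% higher and 6.14% lower. The genes are given as values. Nfkbia and Otulin rose by 0.44 and 0.25 (adjusted p 0.0177 and 0.0372). Traf6, Tnip2, Map3k5 and Tab2 fell by 0.66, 0.54, 0.34 and 0.28 (adjusted p 0.00595, 0.0253, 0.0458 and 0.0371). Traf6, the adaptor that links CD40 and RANK to NF-kB, stood at 16.8, 17.2 and 28.4 FPKM in KO and at 29.4, 26.6 and 26.4 in WT, so KO replicate 3 was with the WT libraries.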

How the data were processed

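Bulk RNA was profiled in 3 Sirt2 KO and 3 Sirt2 WT libraries, grouped by the sample titles. The authors deposited a gene and a transcript table in FPKM with a column per library, a ratio (fold) of KO over WT, its log2, a p-value and a q-value, per the file headers; the transcript lengths deposited with them were used to estimate fragments. The tools named in the submitters' processing notes are edgeR, DESeq2, StringTie, HISAT2, FastQC and cutadapt (no version or role stated), and the build named is mm9; 98 of the members' 99 transcripts found by ID in the GENCODE annotation of GRCm38 had its coordinates and strand, so GRCm38 is used. Which tool made the deposited p-values is unstated.

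Because the values are FPKM, no count test was run. Only 33.1 to 38.0% of low values lay within 0.02 of a whole multiple of a step, so reads were not recovered. FPKM is relative to each library's own total, so strong changes in abundant genes shift other genes too. KO was compared with WT by limma 3.58.1 in R 4.3.3 on log2(FPKM + 1) with a mean trend, for genes that reached 1 FPKM in 3 or more of the 6 libraries, and called at an adjusted p under 0.05 (Benjamini-Hochberg over all genes, or over all transcripts). Fold changes on this scale understate those of low genes. "Rose" and "fell" are used only of called genes. Figures were drawn with matplotlib 3.10.9.

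Every member is named; of each pathway list, called genes and up to 3 with the smallest unadjusted p could be named. Members and lists were chosen with earlier results of these data known. Alternatives were median scaling of the libraries, a filter at 5 FPKM or none, a smaller pseudocount (0.1), a variance prior without a trend, a replicate block, and the omission of each library in turn. The deposited Gene Ontology enrichment tables were not used. Promoters are from RefSeq, GRCm38.p6, and matched 28 of 39 members by symbol. The value of 1 marker gene is not reported here.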

Additional observations from a re-analysis of the deposited data

How the results depend on the processing

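Median scaling, no filter at all, the 5 FPKM filter, the pseudocount of 0.1, the variance prior without a trend and the replicate block left 0 members called by limma, and no member's log2 fold change changed sign under them (17 members were tested at 5 FPKM). The count of all genes called went from 12 to 5 at the 5 FPKM filter. Leaving out 1 library at a time gave 0 to 1088 called genes, 0 to 7 called members, 0 to 6 called pathway genes and a log2 fold change of Sirt2 from -0.85 to -0.71. The upper counts all came without KO replicate 3, and without KO replicate 1 no gene was called. With 1 library left out, log2 fold changes ran from -0.046 to 0.25 for Tnfrsf18, -0.24 to 0.079 for Ltb, -0.33 to 0.12 for Tnf, -0.47 to 0.31 for Tnfrsf9, -0.047 to 0.12 for Tnfrsf1a and -0.41 to 0.00080 for Tnfrsf26. Their signs turned without KO replicate 1 (Ltb, Tnf and Tnfrsf26), KO replicate 3 (Tnfrsf18, Tnfrsf9 and Tnfrsf1a) or WT replicate 2 (Tnfrsf9 and Tnfrsf1a). Log2 fold changes moved by over 1.5 times in 14 of 23 members without KO replicate 1, 9 of 23 without KO replicate 2, 16 of 24 without KO replicate 3, and 3 to 5 when a WT library was left out. The cause was not tested. With the replicate block the log2 fold change of Sirt2 stayed at -0.76 and its limma adjusted p rose to 0.135. Deviations of libraries with the same number correlated at 0.0067, -0.017 and -0.076, so the numbers were not taken to pair libraries. Depth limits the members with few fragments, Cd70, Tnfrsf12a and Fasl among them.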
